A study of Mus musculus with 3 samples.

Results

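The genes described here encode receptors for acetylcholine, glutamate, GABA, glycine, serotonin, neuropeptide Y, opioid peptides and dopamine. They were chosen by name from the deposited table, which lists 52550 genes, and 99 genes matched. Of these, 58 encode subunits of ligand-gated ion channels and 41 encode G-protein-coupled receptors. Male mice aged 10 weeks with the genotype LepRCRE::Ai32 gave the RNA, from superior cervical ganglia, which supply the sympathetic nerves of the head. In these mice Cre recombinase under leptin receptor control switches on a channelrhodopsin reporter fused to a yellow fluorescent protein, and the mark stays once Cre has acted, whether or not the receptor gene is still used. Live LepReYFP+ cells were taken by flow sorting, and Smart-Seq2, which copies whole RNA molecules and amplifies them by PCR, was used for the libraries. There were 3 libraries in 1 group, labelled as biological replicates, and no other group for comparison. The number of animals and of cells behind each library is not stated in those labels.

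Sympathetic neurons of the ganglion are driven by acetylcholine from preganglionic fibres through nicotinic channels, and they release noradrenaline with neuropeptide Y onto their targets. Ionotropic glutamate receptors are tetramers of AMPA, kainate or NMDA subunits. GABA-A, glycine, nicotinic and serotonin type 3 receptors are pentamers. The muscarinic, metabotropic glutamate, GABA-B, neuropeptide Y, opioid, dopamine and remaining serotonin receptors signal through G proteins. Peripheral glia and connective tissue cells are known to carry some transmitter receptors outside synapses.

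The libraries held 8236737, 8037694 and 7721633 reads on genes in replicates 1, 2 and 3, recovered from the deposited values. Levels are in TPM, a transcript abundance scaled by gene length and library total. Glial markers were high, with 11 of 14 satellite glial and Schwann genes above 1 TPM by the test described next and summed levels of 34230, 29099 and 31300 TPM. The series title names perineurial cells, the sheath cells of nerve, and 4 of 16 perineurial markers were above 1 TPM, with summed levels from 537 to 817 TPM. Fibroblast markers were above 1 TPM for 7 of 12 genes, with sums from 4840 to 7049 TPM, and endothelial markers for 3 of 12, with sums from 336 to 475 TPM. Over all protein-coding genes tested 23.7% were called above 1 TPM, so the perineurial and endothelial counts lie near that share. Th, which makes the rate-limiting enzyme of noradrenaline synthesis, had 0, 1 and 4 reads, and Npy had none. Lepr had 363, 32.1 and 54.0 TPM in replicates 1, 2 and 3.

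Glutamate channel subunits carried most of the receptor RNA. Grik2, a kainate receptor subunit, and Gria3, an AMPA receptor subunit, were the receptor genes with the highest mean level, and both had at least 1135 reads in each library. Gria4, another AMPA subunit, was present in all 3 libraries at a lower level. Together the 9 AMPA and kainate genes made up 59.2%, 67.4% and 89.7% of the summed TPM of all 99 receptor genes in replicates 1, 2 and 3. The other ligand-gated families and the G-protein-coupled receptors were mostly near the limit of detection. Most of their genes that reached 1 TPM did so in a single library.

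The pore of an AMPA or kainate channel is lined by a loop that each subunit contributes, and 1 codon of that loop sets whether calcium passes. In Gria2, Grik1 and Grik2 the RNA of this glutamine codon can be edited by the enzyme ADAR2 to read as arginine, which lowers calcium flow, and in Gria2 of the brain this editing is almost complete. The other AMPA subunits keep glutamine. The coding sequence around this codon is shown for the AMPA and kainate subunits at 1 TPM or more in at least 2 libraries and for Gria2, so that the editable Grik2 and Gria2 can be set beside the others. Capitals mark the glutamine codon, and the sequences come from GENCODE M21 transcripts (GRCm38).
Grik2: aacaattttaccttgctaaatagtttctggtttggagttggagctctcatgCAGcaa
Grik3: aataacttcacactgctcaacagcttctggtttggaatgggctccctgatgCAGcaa
Grik5: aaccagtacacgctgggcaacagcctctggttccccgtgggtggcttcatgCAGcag
Gria3: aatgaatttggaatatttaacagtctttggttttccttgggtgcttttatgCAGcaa
Gria4: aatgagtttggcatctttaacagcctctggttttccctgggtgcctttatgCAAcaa
Gria2: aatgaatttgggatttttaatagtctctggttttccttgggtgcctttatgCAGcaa

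The Grik2 stretch lies at chr10:49244326-49244382 on the reverse strand, that of Gria3 at chrX:41610214-41610270 on the forward strand and that of Gria4 at chr9:4464134-4464190 on the reverse strand. Those of Grik3, Grik5 and Gria2 lie at chr4:125691156-125691212 (forward), chr7:25022494-25022550 (reverse) and chr3:80706908-80706964 (reverse). Each lies within 1 coding exon. Over these 57 bases Gria3 and Gria2 share 52 (91.2%), Gria3 and Gria4 share 49 (86.0%), Grik2 and Grik3 share 43 (75.4%), and Grik2 and Gria3 share 36 (63.2%). The codon is CAG in all shown except Gria4, where it is CAA, which also encodes glutamine. Read totals per gene do not show which base was present at an edited site, so editing was not measured.

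With 1 group, the design allows a test of each gene against a fixed level. For each of 27396 genes with a value above that of no read in at least 1 library, limma's moderated test (two-sided) asked whether the mean of log2(TPM + 1) differs from the level that 1 TPM has on that scale, and p-values were adjusted over all of these genes. Of the 86 receptor genes with a read, 3 were called above 1 TPM, or 3.49%. Over all genes tested 16.2% were called above, and over the protein-coding genes tested 23.7%. Another 45 receptor genes, 52.3% of the 86, were called below 1 TPM, against 13.6% of all genes and 14.9% of protein-coding genes tested. The median difference from 1 TPM was -0.82 on the log2(TPM + 1) scale over the receptor genes with a read, -0.11 over all genes tested and 0.66 over the protein-coding genes tested; all 99 receptor genes are annotated as protein-coding. The calls below rest on few reads, at most 5 in any library for any of those genes, and limma made none of them at a level of 0.5 TPM, without mitochondrially encoded genes, without replicate 1 or without replicate 2, where 14, 58, 63 and 60 receptor genes were below at an unadjusted p under 0.05. A bulk library cannot tell fewer cells that carry a receptor from less of its RNA in each cell.

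The AMPA family has 4 subunit genes. Gria3 (ENSMUSG00000001986.16, chromosome X, 41400854 to 41678601, forward strand) had 45.1, 74.2 and 71.1 TPM in replicates 1, 2 and 3, from 1135, 1872 and 1677 reads. All 3 libraries were high and the highest was 1.65 times the lowest. The mean was 63.5 ± 16.0 TPM (SD, n = 3), and on the log2(TPM + 1) scale the difference from 1 TPM was 4.98 (SE 0.24; limma, adjusted p = 0.00435). Gria4 (ENSMUSG00000025892.16, chromosome 9) had 3.80, 5.90 and 6.25 TPM from 61, 95 and 94 reads. It too was even across libraries, and its mean of 5.32 ± 1.32 TPM was above 1 TPM by 1.64 (SE 0.22; limma, adjusted p = 0.0315). That call was lost with a mean-variance trend in the fit (limma, adjusted p = 0.321) and without any 1 of the 3 replicates (limma, adjusted p from 0.0821 to 0.0991). Gria2 had 2, 3 and 2 reads and Gria1 had 1, 1 and 3 reads, so neither passed 0.225 TPM in a library. Both were called below 1 TPM. The lowest Gria3 library thus lay above the highest Gria4 library, and the lowest Gria4 library above every library of Gria1 and Gria2.

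Of 5 kainate subunit genes, Grik2 (ENSMUSG00000056073.16, chromosome 10, 49094833 to 49788766, reverse strand) was the most abundant, at 118, 81.6 and 71.3 TPM from 3981, 2766 and 2259 reads. Replicate 1 was highest, and the ratio of the highest to the lowest library was again 1.65. The mean was 90.2 ± 24.3 TPM (SD, n = 3), a difference of 5.48 from 1 TPM in log2(TPM + 1) units (SE 0.23; limma, adjusted p = 0.00382). Grik2 and Gria3 overlapped in their range, with 71.3 and 71.1 TPM in replicate 3. The calls for Grik2 and Gria3 were lost without replicate 1 (limma, adjusted p = 0.0686 for both) and without replicate 2 (limma, adjusted p = 0.0712 for both), settings in which no gene of the whole table was called above.

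Grik3, which forms kainate receptors of low glutamate affinity, had 0.185, 9.98 and 31.1 TPM from 4, 229 and 668 reads. Replicate 1 was low, replicate 3 was the highest, and the gene was not called (limma, adjusted p = 0.268). Grik5, a high-affinity subunit that forms channels only with Grik1, Grik2 or Grik3 subunits, had 1.38, 5.84 and 1.31 TPM from 18, 77 and 16 reads (limma, adjusted p = 0.266). It was present in every library, highest in replicate 2. Grik4, the other high-affinity subunit, had 1, 0 and 7 reads. Grik1 stayed at 0.0792 TPM or below and was called below 1 TPM. Each library thus held Grik2 RNA together with Grik5 RNA, with Grik2 the higher in every library.

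**Figure D1:**
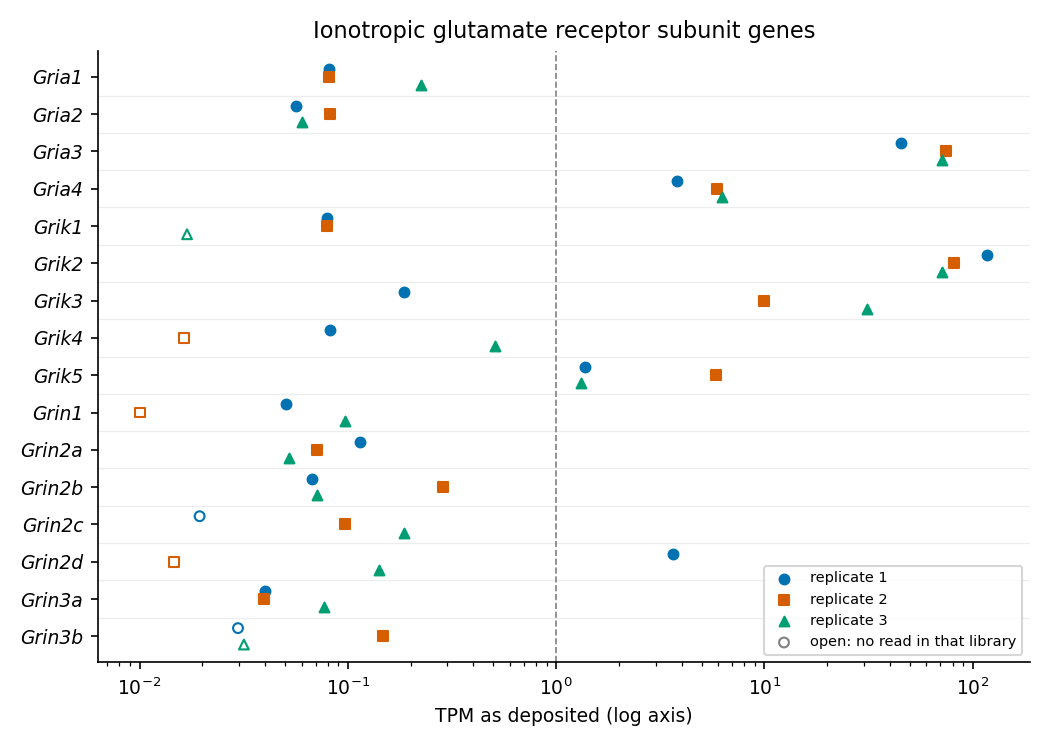
TPM (log axis) of the 16 AMPA, kainate and NMDA subunit genes in each of the 3 libraries, with open symbols where the library had no read and a dashed line at 1 TPM. Grik2 and Gria3 lie between 45.1 and 118 TPM in all libraries and Gria4 between 3.80 and 6.25 TPM, while Gria1, Gria2 and the NMDA subunit Grin1 lie under 1 TPM in all.

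The 3 genes called above were also even between replicates. The SD of log2(TPM + 1) over libraries was 0.37 for Grik2, 0.39 for Gria3 and 0.32 for Gria4. Among 8309 protein-coding genes averaging 5 TPM or more the median SD was 1.52, and 8.50%, 9.44% and 6.69% of those genes had a smaller SD than Grik2, Gria3 and Gria4. The 8 receptor genes averaging that much had a median SD of 1.67. A small SD is also what makes a call possible with 3 libraries, so evenness and call are not separate observations. The glial marker sums given above were likewise even across the libraries, and their part in the level of Grik2 and Gria3 was not tested.

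NMDA receptors need the subunit Grin1, which binds glycine. Grin1 had 1, 0 and 2 reads and was called below 1 TPM (limma, adjusted p = 0.0487). Part of its exons, 13.5%, is shared with the annotated transcript Grin1os, so its few reads cannot be placed with certainty. Grin2d, a glutamate-binding subunit, had 3.66 TPM in replicate 1 from 62 reads, but 0 and 2 reads in replicates 2 and 3. It shares 9.66% of its exon bases with the annotated gene Gm45441, so its reads are uncertain too. Grin2b had 4, 18 and 4 reads on a long transcript, or at most 0.287 TPM. None of the 7 NMDA genes reached 1 TPM in more than 1 library. All 8 metabotropic glutamate receptor genes had a read, none reached 1 TPM, and their highest library value was 0.596 TPM, that of Grm6 in replicate 1 (8, 0 and 0 reads). Grm6 shares 11.0% of its exon bases with the annotated gene Gm12660.

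GABA-A receptors combine alpha and beta subunits with a further kind, and rho subunits form channels of their own. All 19 genes of this family had a read, 6 reached 1 TPM in exactly 1 library and none in more. Gabrr2, a rho subunit, had 67.2 TPM in replicate 1 from 361 reads and no read in replicates 2 and 3. That 1 library made it the receptor gene with the third highest mean (limma, adjusted p = 0.625). Another 3 were chosen after their values were seen. The alpha subunit gene Gabra5 had 0, 71 and 0 reads, the alpha subunit gene Gabra3 22, 0 and 0, and the epsilon gene Gabre 6, 19 and 0. In TPM their highest libraries were 9.36, 2.22 and 1.59. The gamma subunit genes Gabrg1 and Gabrg3 were nearly unread, with at most 3 reads in any library.

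GABA-B receptors are pairs of Gabbr1, which binds GABA, and Gabbr2, which couples to the G protein and carries the receptor to the surface. Gabbr1 (ENSMUSG00000024462.17, chromosome 17) had 21.1, 4.09 and 3.30 TPM from 418, 81 and 61 reads. It was above 1 TPM in each library, with replicate 1 at 6.40 times the lowest, and its mean was not called (limma, adjusted p = 0.0920). Gabbr2 had 1, 0 and 4 reads and was called below 1 TPM (limma, adjusted p = 0.0496). Of the pair, only Gabbr1 was therefore measured above 1 TPM, and in all 3 libraries.

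**Figure D2:**
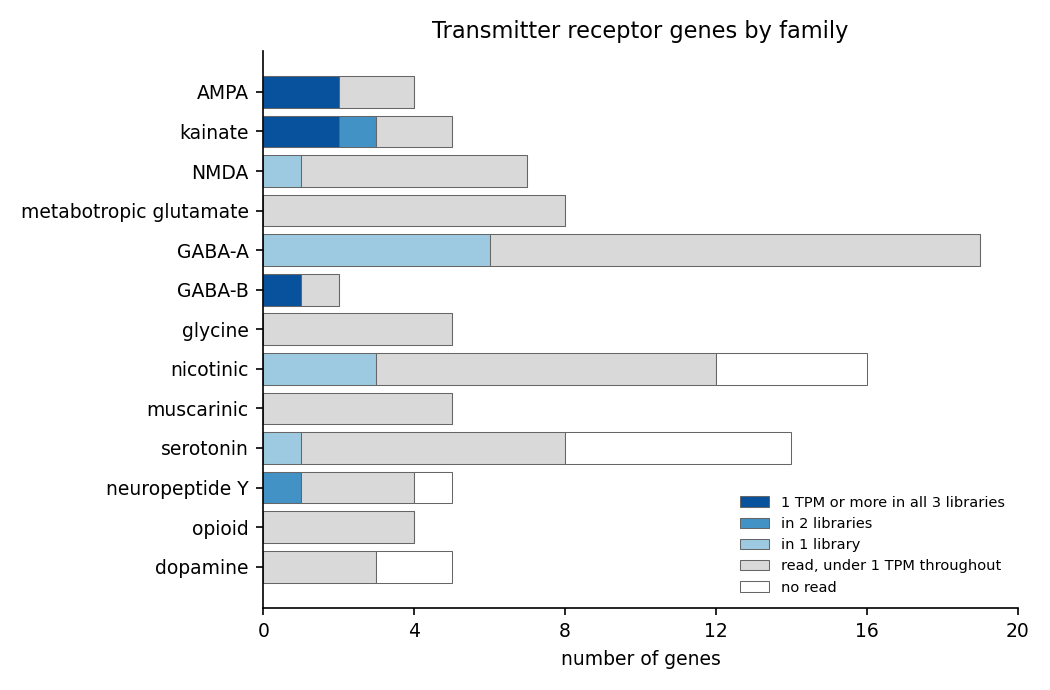
Number of receptor genes in each of 13 families, split by how many libraries held 1 TPM or more. Only AMPA (2 genes), kainate (2) and GABA-B (1) have genes at 1 TPM or more in all 3 libraries, and nicotinic (4), serotonin (6), neuropeptide Y (1) and dopamine (2) genes include some without a read.

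Glycine receptors anchor through their beta subunit Glrb. Glrb had 0, 8 and 0 reads, and none of the 5 glycine receptor genes reached 1 TPM in any library. Among 14 serotonin receptor genes 6 had no read. Htr3a, which the ionotropic serotonin receptor needs, was the highest at 1.74 TPM in replicate 1 from 9 reads, with no read in replicates 2 and 3.

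Nicotinic receptor genes were low, including those of the ganglionic receptor. Neurons of sympathetic ganglia use Chrna3 with Chrnb4, with Chrna5 and Chrnb2 as further subunits. Chrna3 had 7, 1 and 0 reads, Chrnb4 1 read in each library, Chrnb2 1, 6 and 1 reads, and Chrna5 none. Chrnb4, at 0.134 ± 0.00519 TPM, was called below 1 TPM (SD, n = 3; limma, adjusted p = 0.0487), while Chrna3 and Chrnb2 were not called (limma, adjusted p = 0.0802 and 0.0506). With 1 Chrnb4 read in each library, that SD reflects library scaling and not counting error. The Chrnb4 call was lost at a level of 0.5 TPM, without mitochondrially encoded genes, and without replicate 1 or replicate 2. Chrna3 was highest in replicate 1, at 0.539 TPM. Chrnb2 shares 16.3% of its exon bases with Adar, so its reads are uncertain.

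Of the 16 nicotinic genes, 3 reached 1 TPM, each in 1 library. Chrna7, which forms channels from 5 copies of itself and is also known in macrophages, had 374 reads (32.5 TPM) in replicate 2 and none elsewhere. Chrnb3, an accessory subunit, had 184 reads (11.3 TPM) in replicate 2 and none elsewhere. Chrnb1, a subunit of the muscle receptor named after its value was seen, had 1, 1 and 41 reads, or 6.81 TPM in replicate 3. Muscarinic receptors were at the limit of detection, with all 5 genes read and none above 3 reads in a library. Chrm4 was the highest at 0.943 TPM in replicate 3 from 3 reads.

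The receptors for peptides and dopamine were also low. Npy1r, the main vascular receptor for neuropeptide Y, had 8.07, 1.16 and 0.514 TPM from 71, 10 and 4 reads. Replicates 1 and 2 passed 1 TPM, replicate 3 did not, and the gene was not called (limma, adjusted p = 0.494). Markers of mural cells (pericytes and smooth muscle) were above 1 TPM for 5 of 12 genes, with Tagln unread, and summed to 502, 362 and 135 TPM in replicates 1, 2 and 3. Of the 12, 5 were highest in replicate 1 and lowest in replicate 3 (Rgs5, Acta2, Pdgfrb, Cspg4 and Notch3), while Mcam had 33.8, 150 and 45.3 TPM and Abcc9 21.1, 14.9 and 30.6 TPM. Their part in the Npy1r level was not tested. The other neuropeptide Y receptor genes had at most 2 reads in a library. The nociceptin receptor gene Oprl1 had 1, 2 and 3 reads, the highest of 4 opioid receptor genes, none of which passed 0.362 TPM. Of 5 dopamine receptor genes 2 had no read and 3 had at most 1 read in a library, with Drd3 highest at 0.336 TPM in replicate 1.

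**Figure D3:**
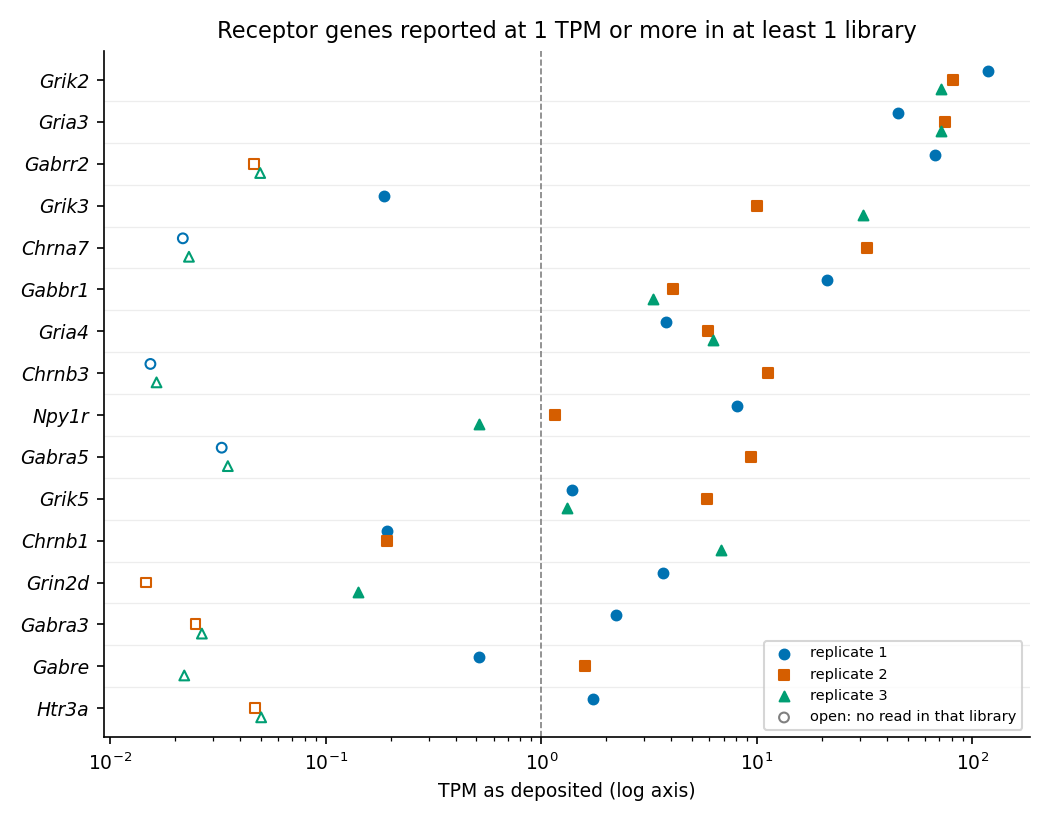
TPM (log axis) in each library of 16 of the 18 receptor genes that reached 1 TPM in at least 1 library, ordered by mean, with open symbols where the library had no read. For Grik2, Gria3 and Gria4 the 3 symbols lie close together, whereas Gabrr2, Chrna7, Chrnb3 and Gabra5 have 1 filled symbol above 9 TPM and 2 open ones.

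Of the 99 receptor genes, 86 (86.9%) had a read in at least 1 library, against 52.1% of all genes and 78.5% of protein-coding genes. A read in all 3 libraries was found for 21 (21.2%), against 20.8% of all genes and 44.0% of protein-coding genes. Only 5 (5.05%) were at 1 TPM or more in all 3 libraries, against 12.4% of all genes and 26.4% of protein-coding genes, and these were Grik2, Gria3, Gria4, Gabbr1 and Grik5. Another 68 had reads but stayed under 1 TPM throughout. Of the 86 receptor genes with a read, 55 had at most 4 reads in every library and 17 had a single read over the 3 libraries. For the 13 genes without a read, a count of 0 allows up to 3 reads in a library, which would be between 0.218 and 0.742 TPM depending on gene length and library. Since PCR copies are counted here without molecular identifiers, that upper limit covers counting error only.

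Many receptor genes that reached 1 TPM did so in only 1 library. Of the 18 that reached 1 TPM anywhere, 11 (61.1%) did so in exactly 1 library, against 26.3% of protein-coding genes that reached it anywhere. In 9 of the 18, at least 90% of the summed TPM lay in 1 library, against 23.4% of those protein-coding genes. Replicate 1 held 4 of the 9, replicate 2 held 4 and replicate 3 held 1. The receptor genes were not matched to others on their level, so these shares are descriptions. Marker lists of other cell types were uneven as well. Macrophage markers, with 0 of 12 above 1 TPM and Aif1 unread, summed to 3.68, 172 and 104 TPM in replicates 1, 2 and 3. Most of the replicate 2 sum came from Fcer1g and Cd68, at 86.8 and 61.0 TPM. Tyrobp, Lyz2 and Ptprc were instead highest in replicate 3, at 75.3, 13.7 and 11.1 TPM, and the other macrophage markers had at most 7 reads in a library. Neuron markers, with 2 of 18 above and Npy unread, summed to 126, 134 and 342 TPM in replicates 1, 2 and 3. The neuronal tubulin Tubb3 had 0, 243 and 1 reads. Whether such cells contributed to the high values of Chrna7, Chrnb3 and Gabra5 in replicate 2 was not tested.

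**Figure D4:**
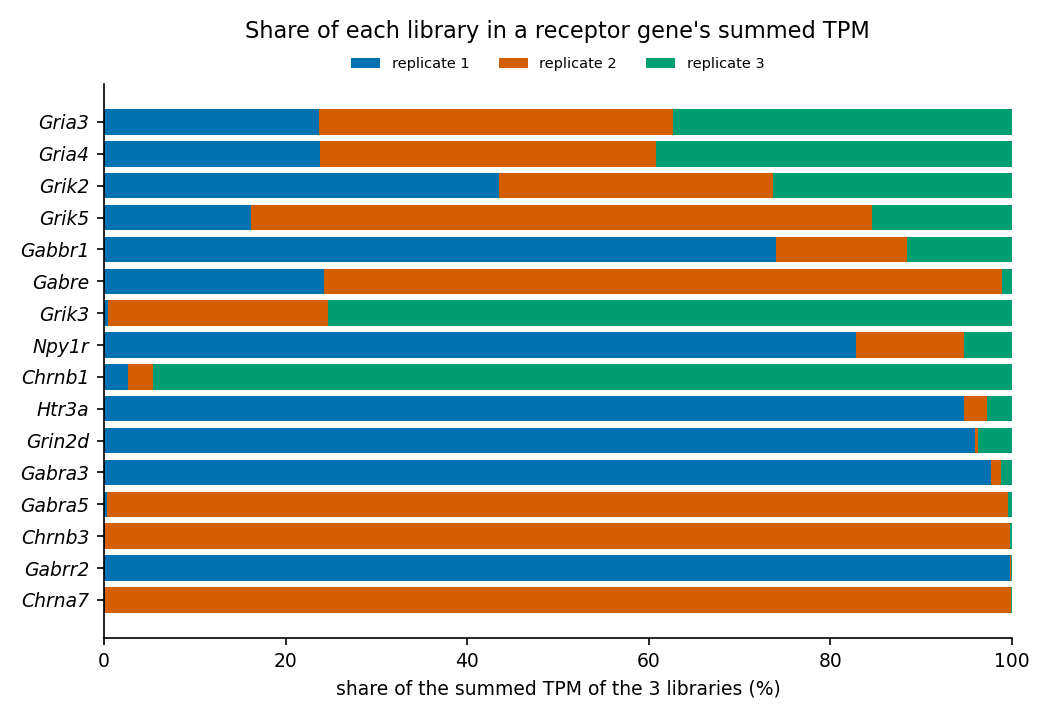
Share (%) of each library in the summed TPM of 16 of the 18 receptor genes at 1 TPM or more in at least 1 library, ordered from the most even to the least. Gria3, Gria4 and Grik2 are spread over all libraries, and 8 of the genes drawn have at least 90% in 1 library, among them Gabrr2 with 99.9% in replicate 1 and Chrna7 with 99.9% in replicate 2.

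Many receptor genes lie next to relatives on the chromosome. With neighbours defined as less than 1 Mb apart, 34 of the 99 genes fell into 13 groups on the GENCODE M21 annotation. In several groups a gene with many reads in 1 library stood beside an unread or nearly unread relative. Few reads were the rule among the 99 receptor genes, with 13 unread and 55 at 4 reads or fewer in every library. The pairs below were chosen after their values were seen, so they are descriptions only. Gabra5 had 71 reads in replicate 2 and its neighbour Gabrg3 had 2. That group also holds a gene not reported here, so this pair does not describe the whole group. Gabrr2 had 361 reads in replicate 1 and its neighbour Gabrr1 none there. Chrnb3 had 184 reads in replicate 2 and its neighbour Chrna6 had 2. Npy1r had 71 reads in replicate 1 and its neighbour Npy5r 1. Gabra3 and Gabre, neighbours on chromosome X, instead both had reads in replicate 1, 22 and 6, and had 0 and 19 in replicate 2. The chromosome 9 group of Chrna3, Chrna5 and Chrnb4 had at most 7 reads for any gene in any library.

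Genes that act with these receptors were compared by lists. For setting beside the counts that follow, 16.2% of all genes tested were called above and 13.6% below 1 TPM. Over the protein-coding genes tested the shares were 23.7% and 14.9%. In most lists the share called above was no higher than that of protein-coding genes, and no list was tested as a set. Of 15 auxiliary subunits of AMPA and kainate channels, limma called 0 above and 3 below 1 TPM (0 above also at an unadjusted p under 0.05), and 6 had no read. The kainate auxiliary gene Neto2 had 87.0, 2.37 and 0.153 TPM, high in replicate 1 alone, and the AMPA auxiliary genes Cacng4 and Shisa7 reached 7.79 and 1.43 TPM in replicate 2. Of 19 scaffolds of excitatory receptors, 3 were above and 4 below: the syntenin gene Sdcbp averaged 321 ± 137 TPM, Lin7c 142 ± 91.0 TPM and Dlg1 70.5 ± 18.2 TPM (SD over 3 libraries; limma, adjusted p 0.00378 to 0.0199). Of 16 scaffold and trafficking genes of inhibitory receptors, 6 were above and 1 below. Gphn, which encodes the gephyrin scaffold of glycine and GABA-A receptors and also an enzyme step of molybdenum cofactor synthesis, had 153, 141 and 138 TPM. Gabarap, Gabarapl2 and Ubqln1, which also serve autophagy and protein turnover, had means of 241, 163 and 84.2 TPM, and the GABA-B auxiliary gene Kctd12 had 30.4 TPM (limma, adjusted p from 0.00336 to 0.0222 for these 5).

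Of 13 chaperones and modulators of nicotinic receptors, 2 were above and 2 below 1 TPM: Ly6e at 231 ± 31.1 TPM and the synapse organiser Agrn at 29.6 ± 24.6 TPM (SD over 3 libraries; limma, adjusted p = 0.00336 and 0.0364). Rapsn, which clusters the muscle receptor, had 605 reads in replicate 2 and 0 and 1 in the others, and Lypd6b had 967 in replicate 1 and 0 and 1 in the others. Of 8 genes for acetylcholine synthesis, transport and breakdown, Bche, the butyrylcholinesterase of glia and plasma, was above at 115, 105 and 105 TPM (limma, adjusted p = 0.00336) and 3 were below. Ache, the acetylcholinesterase of synapses, had no read.

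Among 19 genes of glutamate synthesis, transport and breakdown, 3 were above and 5 below 1 TPM. Glud1, glutamate dehydrogenase, had 110 ± 48.7 TPM and the neutral amino acid carrier Slc1a5 6.82 ± 3.86 TPM (SD over 3 libraries; limma, adjusted p = 0.00538 and 0.0487). Folh1, which frees glutamate from a dipeptide, had 0, 26 and 1452 reads. Of 18 genes for GABA and glycine, 3 were above and 3 below. Dbi, whose product binds acyl-CoA and also modulates GABA-A receptors, had 4001, 5687 and 3381 TPM, Gcsh of glycine breakdown had 110 ± 42.5 TPM and the taurine carrier Slc6a6 28.3 ± 18.7 (limma, adjusted p from 0.00336 to 0.0487). Maob, a monoamine oxidase, had 98, 1043 and 0 reads.

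Of 21 G proteins, receptor kinases and arrestins, 7 were above and 1 below 1 TPM. Gnb1, a beta subunit shared by many receptors, led with 465, 538 and 445 TPM, and the inhibitory alpha subunits Gnai1, Gnai3 and Gnai2 had means of 218, 231 and 34.7 TPM. The others above were Gnaq, Gnb4 and Gnb2, at 146, 52.8 and 28.1 TPM (limma, adjusted p from 0.00336 to 0.0287 for the 7). Of 7 peptide ligand genes limma called 0 above and 0 below (0 above and 0 below also at an unadjusted p under 0.05), and 4 had no read. Penk, the precursor of enkephalins, had 1, 133 and 70 reads, while Ppy and Pomc had at most 3 reads in a library. Among the RNA editing enzymes, looked up after the values were seen, Adarb1, which encodes ADAR2, had 20, 123 and 0 reads, at most 4.27 TPM.

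**Figure D5:**
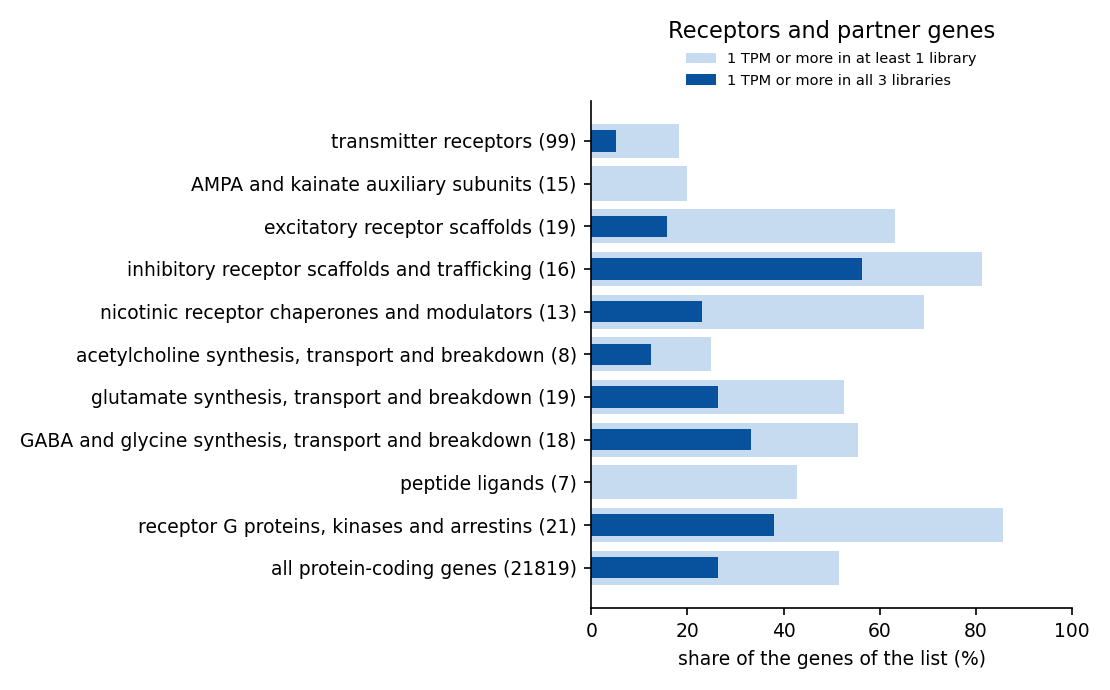
Share (%) of the genes in each list, with list size in brackets, that reached 1 TPM in at least 1 library (light bars) and in all 3 libraries (dark bars). Of the 99 receptor genes 18 reached it somewhere and 5 everywhere, while 13 and 9 of the 16 genes for inhibitory receptor scaffolds and trafficking did. For all protein-coding genes the shares were 51.6% and 26.4%.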

How the data were processed

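RNA was measured in 3 libraries of 1 group. The authors deposited log2 TPM for 52550 genes. STAR and featureCounts were used with mm10 (GRCm38), per the submitters' processing notes; versions, annotation, strand setting and filters are not stated in these sources. Reads from overlapping or antisense genes therefore cannot be told apart.

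The deposited values include 0.25 read per gene, put in ahead of the length division, as the values themselves show. With GENCODE M21 exon lengths, whole reads within 0.02 were recovered for 49035 genes of the same ID version and 756 of another version. For 2758 more, 6 receptor genes among them (Grik1 and Drd3 of those described), the smallest whole length that gave whole reads within 0.001 was used, so their reads may be understated, and 1 gene was not recovered. For a gene unread in a library the value is that 0.25 read alone, and reads are given instead of TPM. Means, SDs and tests rest on the deposited values.

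Tests used limma 3.58.1 in R 4.3.3 on log2(TPM + 1), which understates differences of low genes, adjusted by Benjamini-Hochberg over 27396 genes, with calls made at 0.05. Other work used Python 3.11.15, pandas 2.3.3, numpy 2.4.6, Biopython 1.88 and matplotlib 3.10.9. The labels call the replicates biological but do not tie them to animals, so the spread between these libraries may be partly technical. The p-values set the distance from the level tested against that spread, as moderated by limma.

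Receptor genes were named with every library's value if called above 1 TPM, at 1 TPM or more in at least 2 libraries, at 10 TPM or more in 1, among the 10 highest means, highest in their family, or needed for assembly. In other lists, genes called above and the 3 highest means were named; other genes were named after their values were seen. Some genes are counted but not reported here by name. The genes and lists were chosen with earlier results of these data known. Alternatives were another pseudocount, filters, levels of 0.5 and 2 TPM, a mean-variance trend, rescaling without mitochondrially encoded genes, a minimum of 5 reads and leaving out each replicate.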

Additional observations from a re-analysis of the deposited data

How the results depend on the processing

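No paired analysis was possible because all libraries belong to 1 group. Receptor genes above 1 TPM numbered 2 with a mean-variance trend and 3 in the remaining alternatives that kept all libraries. Leaving out 1 replicate gave 0 to 2 of them, and 0 to 2435 over all genes (0 without replicate 1 or 2, where limma gave 4646 and 4453 at an unadjusted p under 0.05, 5 and 3 of them receptor genes). The call for Gria4 was lost with the trend and without any 1 of the replicates (limma, adjusted p = 0.321 with the trend and from 0.0821 to 0.0991 without a replicate). Calls below 1 TPM depended most on the settings. Over all genes they numbered 3719, against 29850 with no filter, 15 with a mean of at least 0.5 TPM, 0 at 0.5 TPM, 10962 at 2 TPM, 9648 with the trend, 0 without mitochondrially encoded genes and 0 to 4889 without a replicate. Over receptor genes, 45 became 75, 0, 0, 68, 68, 0 and 0 to 35 in the same order. At an unadjusted p under 0.05, the limma counts of 0 were 817 genes at 0.5 TPM and 6225 without mitochondrially encoded genes, and for receptor genes 14 and 58, with 0 under the mean filter. The cause was not tested, other than that no filter adds genes without a read and that the 0.5 TPM filter removes low ones.

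With at least 5 reads as the minimum, 31 receptor genes were read in at least 1 library and 6 in all. Without a replicate, 73 to 78 were read in at least 1 of the remaining libraries and 29 to 34 in both. At 1 TPM or more, 13 to 17 were found in at least 1 remaining library and 5 to 6 in both. Differences from the level tested changed sign for genes not called. Leaving out 1 replicate gave -0.93 to 2.08 for Gabrr2, -0.15 to 1.15 for Npy1r, -0.97 to 1.55 for Chrna7, -0.98 to 0.82 for Chrnb3 and -0.89 to 0.21 for Grin2d. The lowest came without replicate 1 for Gabrr2, Npy1r and Grin2d and without replicate 2 for Chrna7 and Chrnb3. Chrnb3 gave -0.42 with a pseudocount of 0.25 and -0.36 at 2 TPM, and Grin2d 0.23 at 0.5 TPM. Depth limits what can be said of most receptor genes, since 1 read on a 1 kb gene is worth 0.391, 0.391 and 0.418 TPM.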
